A study of Mus musculus with 6 samples.

Results

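The 34 genes described here encode the machinery that carries a cell into, through and out of mitosis: cyclins and their kinase, the Aurora and Polo kinases, the spindle assembly checkpoint, kinetochore proteins, mitotic kinesins, cytokinesis factors and the proliferation markers Top2a and Mki67. They were chosen by symbol, as a named set of mitosis and spindle genes, out of 55487 genes in the count table, by a rule that uses no measured value, although earlier results of these data were known when the set was drawn up. All 34 were present and all 34 had enough counts to test, among 14481 genes tested. The data are RNA-seq counts from 6 libraries of mouse bone marrow leukaemia cells in 2 groups of 3. The KO group (replicates 2, 3 and 4) lacks the microRNA miR-182, and the WT group (replicates 1, 3 and 4) is wild type. Both groups share the model, a B-lineage acute lymphoblastic leukaemia set off by the BCR-ABL (P190) fusion kinase in transplanted bone marrow cells. The mice were 6 to 8 weeks old at transplantation per the labels, which give day 0 as the time of every library. Cells were sorted as GFP and B220 positive, B220 being a marker of the B lineage. The labels do not say how the knockout was made, whether each library came from its own mouse, or what the replicate numbers stand for, so p-values measure the spread between these libraries, which may be technical.

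In a dividing cell, cyclin A and cyclin B with CDK1 start mitosis, and the Polo and Aurora kinases build the spindle and correct its attachments. The checkpoint holds the cell in metaphase until every kinetochore is attached, and then the anaphase-promoting complex, with CDC20, destroys cyclin B and securin so that the chromosomes part and the cell divides. Most of these genes are transcribed late in the cell cycle under MuvB complexes, B-MYB and FOXM1, and in leukaemia their mRNA is commonly read as a measure of how many cells are cycling.

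Total counts ran from 17704382 to 29237035 per library, and a floor of 3 counts stands at 0.103 to 0.169 CPM (counts per library total, on one common scale for all libraries). Mir182 had 0 counts in all 6 libraries, KO and WT alike, so an mRNA library does not check the genotype. All 13 B-lineage markers were detected, with summed levels of 7400.2 to 8484.7 CPM in KO libraries and 7809.1 to 8319.4 CPM in WT libraries, and Pax5 had the most counts. By the test described below, 4 of these 13 were called higher in KO and 3 lower, so similar sums hide differences in both directions. Beside the calls of this and the following marker lists, 23.9% of all genes tested were called higher and 28.5% lower. Markers of neutrophils, which should not pass a B220 gate, summed to 1449.3 to 7281.6 CPM in KO libraries and 17483.5 to 42516.9 CPM in WT libraries. All 19 of them were called lower in KO and none was at 0. Likewise 8 of 9 monocyte and macrophage markers were called lower in KO, with sums of 275.9 to 688.7 CPM in KO libraries and 1479.2 to 4478.5 CPM in WT libraries. Of 10 stress response genes, 9 were called lower in KO. The T cell and NK cell sums were at most 6.1 CPM in KO libraries and 87.4 CPM in WT libraries. Of the T cell markers, 4 of 6 tested were called lower, and of the NK cell markers 2 of 4. The 10 erythroid markers summed to 628.1 to 678.5 CPM in KO libraries and 217.7 to 366.6 CPM in WT libraries, with 1 of the 6 tested, Car2, called. Car2 made up most of the KO sums, with 511 to 559 CPM, against 125 to 249 CPM in WT libraries. The globin gene Hbb-bs overlapped between the groups. It had 63.9, 48.5 and 60.1 CPM in KO replicates 2, 3 and 4, against 116.7, 11.1 and 26.9 CPM in WT replicates 1, 3 and 4. In bulk samples, fewer cells of a type and less RNA per cell cannot be told apart. The part of these other cells in the results below was not tested, apart from a fit with the neutrophil level as a covariate that is given beside the calls.

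The mitosis and spindle genes differed little between the genotypes. With levels as TMM-normalised CPM and with edgeR's quasi-likelihood test, Benjamini-Hochberg adjusted over all genes tested and read at 0.05, 2 of the 34 genes were called higher in KO and 1 lower, and 31 were not called. Over all genes tested, 23.9% were called higher and 28.5% lower, so both shares among these genes, 5.88% and 2.94%, lay below the background. The genes called higher were Bub1b and Bub3, which encode subunits of the mitotic checkpoint complex, and the gene called lower was Anln, which encodes anillin, a scaffold of the contractile ring. The log2 fold changes (KO over WT) ran from -0.41 to 0.38, and 25 of them were positive and 9 negative. Their median was 0.14, beside a median of 0.00 over all genes tested. The median size of the change without its sign was 0.19 for these genes and 0.41 for all genes. All 34 lay within 0.5 in either direction, which 8304 of the 14481 genes tested also did. The counts of calls move with single libraries: 8 higher and 0 lower when KO replicate 3 was left out, 0 and 5 for KO replicate 4, 2 and 0 for KO replicate 2, 0 and 1 for WT replicate 1, and 0 and 0 for WT replicate 4.

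In this fit, which leaves out the neutrophil covariate, the lowest lower 95% limit was -0.74 (Anln) and the highest upper limit 0.64 (Bub1b). No interval of this fit reached a doubling or its inverse. With the covariate SEs were larger, at 0.22 against 0.12 for Cdc25c and 0.29 against 0.16 for Plk1, so these limits do not apply to that fit. A p above the threshold does not show that a gene had the same level in both genotypes, and the limits cover the spread between these libraries only. The KO libraries all lay above the WT libraries for 3 genes (Bub1b, Bub3 and Cdc25c), beside 30.8% of all genes tested, and all below them for 2 (Anln and Nuf2), beside 33.2%. For the other 29 the groups overlapped. In the authors' deposited table, which comes from DESeq2, the same 3 genes passed an FDR of 0.05, with 0.00547 for Bub1b, 0.0242 for Bub3 and 0.0292 for Anln. There, 19.4% of 18095 genes were higher and 23.3% lower at that FDR, and 0 of the 34 genes also passed the authors' log2 fold change threshold of 1.

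**Figure D1:**
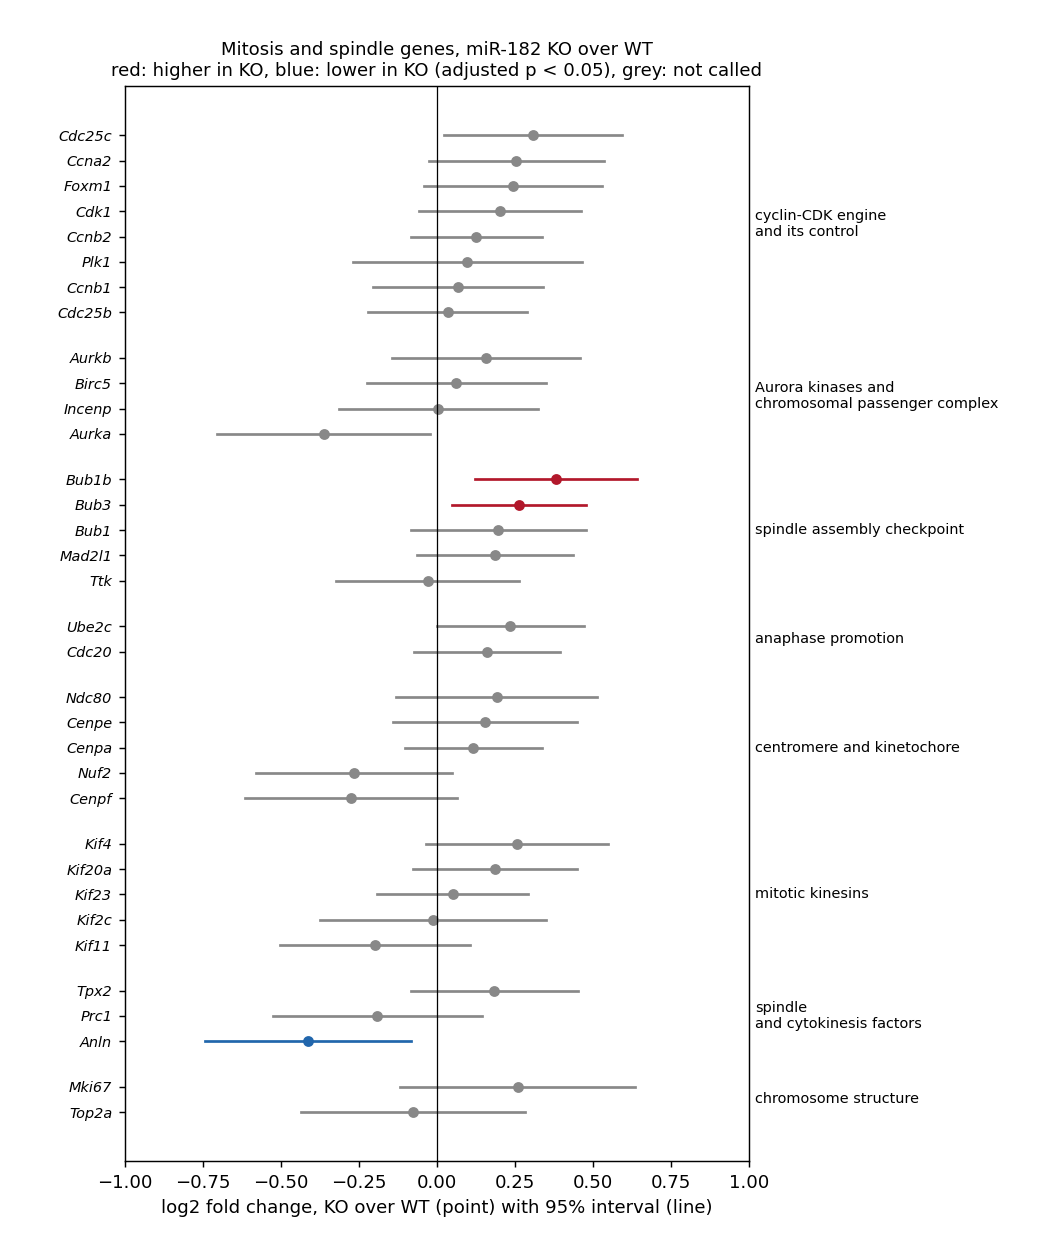
Log2 fold change of each of the 34 genes, KO over WT (x axis), with its 95% interval, grouped by role down the page; red marks genes called higher, blue lower and grey not called. All points lie between -0.41 and 0.38, and the 3 coloured ones are Bub1b, Bub3 and Anln.

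The sequences at the starts of these genes are shown for the letters of a promoter element known for the shared timing of late cell cycle genes. This element, the cell cycle genes homology region (CHR), has the letters TTTGAA or TTCGAA and is bound by the LIN54 subunit of MuvB complexes; it often stands downstream of CCAAT boxes, which bind NF-Y. RefSeq promoter windows on GRCm38.p6, from 250 bases before the start to 50 after it, were matched for 27 of the 34 genes. Incenp, Foxm1, Cdc25c, Tpx2, Kif20a, Aurkb and Ccna2 were not matched. Below are the stretches from 60 bases before the start to 50 after it for the 3 called genes, for 5 genes that were not called and for Ccnb1, whose whole window holds neither CHR form. Each reads 5′ to 3′ along the gene's strand, and capitals mark either CHR form and the CCAAT box. Where one lies on the opposite strand its reverse complement is in capitals, TTCAAA for the CHR and, for the CCAAT box, ATTGG.
Bub1b (chr2:118598151-118598260, plus strand): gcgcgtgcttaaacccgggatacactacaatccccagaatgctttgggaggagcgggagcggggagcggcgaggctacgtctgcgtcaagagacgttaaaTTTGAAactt
Bub3 (chr7:131560310-131560419, plus strand): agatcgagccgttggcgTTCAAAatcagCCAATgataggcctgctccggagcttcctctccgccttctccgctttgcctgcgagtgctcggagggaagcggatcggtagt
Anln (chr9:22389157-22389266, minus strand): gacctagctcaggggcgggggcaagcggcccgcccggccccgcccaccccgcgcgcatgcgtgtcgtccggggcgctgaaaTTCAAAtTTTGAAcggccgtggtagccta
Aurka (chr2:172370521-172370630, minus strand): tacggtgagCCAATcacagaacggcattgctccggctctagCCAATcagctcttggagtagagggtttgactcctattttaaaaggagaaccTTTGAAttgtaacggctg
Plk1 (chr7:122159375-122159484, plus strand): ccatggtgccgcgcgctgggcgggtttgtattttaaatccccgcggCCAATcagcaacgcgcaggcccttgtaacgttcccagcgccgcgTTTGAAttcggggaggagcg
Ccnb2 (chr9:70421505-70421614, minus strand): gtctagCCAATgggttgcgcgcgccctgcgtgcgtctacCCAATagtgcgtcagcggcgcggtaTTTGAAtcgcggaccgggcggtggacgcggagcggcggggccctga
Kif23 (chr9:61946750-61946859, minus strand): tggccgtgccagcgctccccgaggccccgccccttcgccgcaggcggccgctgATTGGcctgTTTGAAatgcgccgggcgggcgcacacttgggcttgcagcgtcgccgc
Cenpf (chr1:189688037-189688146, minus strand): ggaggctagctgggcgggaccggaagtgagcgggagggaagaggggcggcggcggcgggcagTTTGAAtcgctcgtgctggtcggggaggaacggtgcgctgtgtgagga
Ccnb1 (chr13:100786437-100786546, minus strand): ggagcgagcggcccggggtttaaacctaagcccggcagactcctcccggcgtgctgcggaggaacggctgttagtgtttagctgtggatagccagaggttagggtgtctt

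TTTGAA or TTCGAA, searched on both strands, was found in the windows of 22 of the 27 genes, or 81.5%. The same letters were found in 17% of the 10124 genes tested that have a window, in 21.7% of all 27025 genes with one, and in 19.4% of 31 DNA replication genes. TTTGAA alone was in 74.1% of the 27 genes and in 14.9% of the genes tested, and TTCGAA, which is its own reverse complement, in 14.8% and 2.58%. In 21 genes a match began within 100 bases of the start. Counted from the RefSeq start, it began at base 3 in Kif23 and Cenpf, at base 5 in Ccnb2 and at base 31 in Plk1. RefSeq starts can differ from the ends of the deposited gene ranges, as they do for Kif23 and Bub3. CCAAT was in 77.8% of the 27 genes, 58.9% of the other mitotic genes and 61.3% of the DNA replication genes. Its share was 43.4% of the genes tested, and its matches overlapped a CHR match in 0 windows. The called genes do not stand apart in these letters. By the same count, Bub1b has TTTGAA at base 41, and Anln has it on both strands, at bases 22 and 29. Bub3 has it on the opposite strand, at base -43 from the start used above and at base -167 from another RefSeq start. Birc5, Ccnb1, Cenpe, Mad2l1 and Nuf2 held neither CHR form in this window. These matches are letters in a window and say nothing of what binds there in these cells.

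The deleted microRNA can be set beside the 34 mRNAs. Its mature form, mmu-miR-182-5p (RefSeq, GRCm38.p6, chr6:30165962-30165986, minus strand), is shown with the seed, bases 2 to 8, in capitals.
mmu-miR-182-5p: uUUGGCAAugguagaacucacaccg
A perfect match to the seed reads TTGCCAA in a mRNA. Searched in each gene's longest annotated 3′ UTR, this match occurred in 1 of the 34 genes, or 2.94%, and in 1428 of the 11966 tested genes with a UTR, or 11.9%. The UTRs of the 34 genes were shorter, with a median length of 662 bases against 1163 bases over the tested genes. The one match was in Mad2l1 (GRCm38, chr6:66546559-66546565, plus strand), far along a UTR of 6802 bases, and it is shown with its neighbouring bases, the match in capitals.
Mad2l1: agaaattttaagTTGCCAAcaaataca
Mad2l1 had 99.5, 81.0 and 104 CPM in KO replicates 2, 3 and 4, against 80.7, 80.9 and 88.1 CPM in WT replicates 1, 3 and 4. The groups overlapped and the gene was not called, with a log2 fold change of 0.19, an SE of 0.11 and an edgeR adjusted p of 0.177. Without KO replicate 3 it was called higher (0.31, adjusted p = 0.0363). With any other library left out the adjusted p ran from 0.194 to 0.331.

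No gene of the cyclin and CDK engine that starts mitosis passed the test. All 8 genes of this role had positive fold changes, between 0.03 and 0.31, and 0 of them were called. Cdc25c, a phosphatase that activates CDK1, came nearest. It had 24.0, 24.8 and 31.5 CPM in KO replicates 2, 3 and 4, against 21.5, 21.8 and 21.7 CPM in WT replicates 1, 3 and 4. Every KO library was above every WT library, and KO replicate 4 stood well above the other two. The log2 fold change of Cdc25c was 0.31 (SE 0.12, 95% interval 0.02 to 0.59), with an edgeR adjusted p of 0.0675. Without KO replicate 2 the adjusted p was 0.0466, and with any other library left out it ran from 0.0743 to 0.151. Ccna2, which encodes cyclin A, had 376, 313 and 423 CPM in the KO libraries, against 290, 320 and 322 CPM in the WT libraries. Its highest values were both in KO, but KO replicate 3 fell among the WT libraries (log2 fold change 0.25, SE 0.12, adjusted p = 0.110). Foxm1, the transcription factor that drives many of these genes, gave 0.24 on the same scale (SE 0.12, adjusted p = 0.128).

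Cdk1, the kinase itself, had 128, 124 and 157 CPM in the KO libraries, against 110, 119 and 126 CPM in the WT libraries. Its groups overlapped (log2 fold change 0.20, SE 0.11, adjusted p = 0.159). The B-type cyclins showed smaller differences, 0.07 for Ccnb1 and 0.13 for Ccnb2. Plk1, the Polo kinase of mitotic entry and spindle assembly, had 116, 109 and 164 CPM in the KO libraries, against 113, 125 and 126 CPM in the WT libraries. Only KO replicate 4 lay above the WT range and KO replicate 3 lay below it, which left a log2 fold change of 0.10 with an interval from -0.27 to 0.46. Cdc25b, the phosphatase that acts earlier at the centrosome, had the value nearest to 0 in this role, 0.03 (adjusted p = 0.805).

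The 2 Aurora kinases had fold changes of opposite sign, and neither was called. Aurka encodes the kinase of centrosomes and spindle poles and had 43.2, 43.6 and 59.3 CPM in KO replicates 2, 3 and 4, against 55.5, 65.8 and 66.5 CPM in WT replicates 1, 3 and 4. KO replicates 2 and 3 were under every WT library, and KO replicate 4 fell between the WT values. Its log2 fold change was -0.36 (SE 0.14, 95% interval -0.70 to -0.02) and its edgeR adjusted p was 0.0710, so it was not called. The adjusted p was 0.0173 without KO replicate 4 and 0.0473 without WT replicate 1. With any other library left out it ran from 0.138 to 0.259. Aurkb, the catalytic subunit of the chromosomal passenger complex, gave 0.16 (adjusted p = 0.333). Its partners in that complex, the scaffold Incenp and survivin (Birc5), gave 0.00 and 0.06. Incenp had 285, 249 and 347 CPM in the KO libraries, against 263, 315 and 301 CPM in the WT libraries, so the KO values lay on both sides of the WT values.

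The spindle assembly checkpoint held both genes called higher. Bub1b encodes BUBR1, which binds CDC20 and blocks the anaphase-promoting complex, and lies on chromosome 2 from 118598211 to 118641591 (GRCm38, plus strand). It had 251, 239 and 299 CPM in KO replicates 2, 3 and 4, against 187, 221 and 198 CPM in WT replicates 1, 3 and 4. All 3 KO libraries lay above all 3 WT libraries, and the lowest KO value and the highest WT value were 239 and 221 CPM. Bub1b averaged 263 ± 31.8 CPM in KO and 202 ± 17.3 CPM in WT (SD, n = 3 each), a log2 fold change of 0.38 (SE 0.11, 95% interval 0.12 to 0.64) with an edgeR adjusted p of 0.0234. Bub3, which brings BUB1 and BUBR1 to kinetochores, lies on chromosome 7 from 131560222 to 131571895 (plus strand). It had 213, 196 and 234 CPM in the KO libraries, against 166, 185 and 185 CPM in the WT libraries. Again the groups did not overlap. Bub3 averaged 214 ± 19.0 CPM in KO and 179 ± 11.1 CPM in WT (SD, n = 3 each), a log2 fold change of 0.26 (SE 0.09, 95% interval 0.05 to 0.48) with an adjusted p of 0.0438.

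The other 3 checkpoint genes were not called. Bub1, the kinase that recruits the others, had 100.1, 83.5 and 113 CPM in the KO libraries, against 80.8, 86.7 and 91.5 CPM in the WT libraries (log2 fold change 0.20, adjusted p = 0.200). Ttk, which encodes the upstream kinase MPS1, gave -0.03 (interval -0.32 to 0.26). The value of Mad2l1, which encodes the checkpoint protein MAD2, is given above. The calls of Bub1b and Bub3 rest on single libraries. Bub1b had an adjusted p of 0.0571 without KO replicate 4, 0.0600 without WT replicate 1 and 0.0791 without WT replicate 4, while Bub3 had one of 0.0822, 0.108, 0.108 and 0.0853 without KO replicates 2 and 4 and WT replicates 1 and 4.

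Anln was the only gene of the 34 called lower. It lies on chromosome 9 from 22332012 to 22389188 (GRCm38, minus strand) and had 62.9, 54.5 and 78.5 CPM in KO replicates 2, 3 and 4, against 85.4, 80.8 and 94.8 CPM in WT replicates 1, 3 and 4. The groups did not overlap, though the highest KO value and the lowest WT value were close, at 78.5 and 80.8 CPM. Anln averaged 65.3 ± 12.2 CPM in KO and 87.0 ± 7.15 CPM in WT (SD, n = 3 each), a log2 fold change of -0.41 (SE 0.14, 95% interval -0.74 to -0.08) with an adjusted p of 0.0417. Without KO replicate 2, KO replicate 3, WT replicate 1 or WT replicate 4 the adjusted p was 0.142, 0.140, 0.0649 and 0.131, and with upper-quartile factors, no filter on low counts or library totals alone it was 0.0612, 0.0637 and 0.113. With the summed neutrophil marker level as a covariate, an alternative chosen after seeing the data, the fold changes of Bub1b, Bub3 and Anln were 0.50, 0.32 and -0.04 and 0 of the 34 genes were called. The covariate itself does not overlap between the genotypes, and over all genes it left 257 called higher and 486 lower, against 3466 and 4133 without it.

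The other genes of the spindle midzone and cytokinesis were not called. Prc1, which bundles microtubules between the separating chromosomes, had 114, 107 and 156 CPM in the KO libraries, against 139, 142 and 149 CPM in the WT libraries. Its KO replicates 2 and 3 were under the WT range and KO replicate 4 was above it (log2 fold change -0.19, adjusted p = 0.290). Tpx2, which activates Aurora A on spindle microtubules, gave 0.18 (adjusted p = 0.209), with a sign opposite to that of Aurka.

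**Figure D2:**
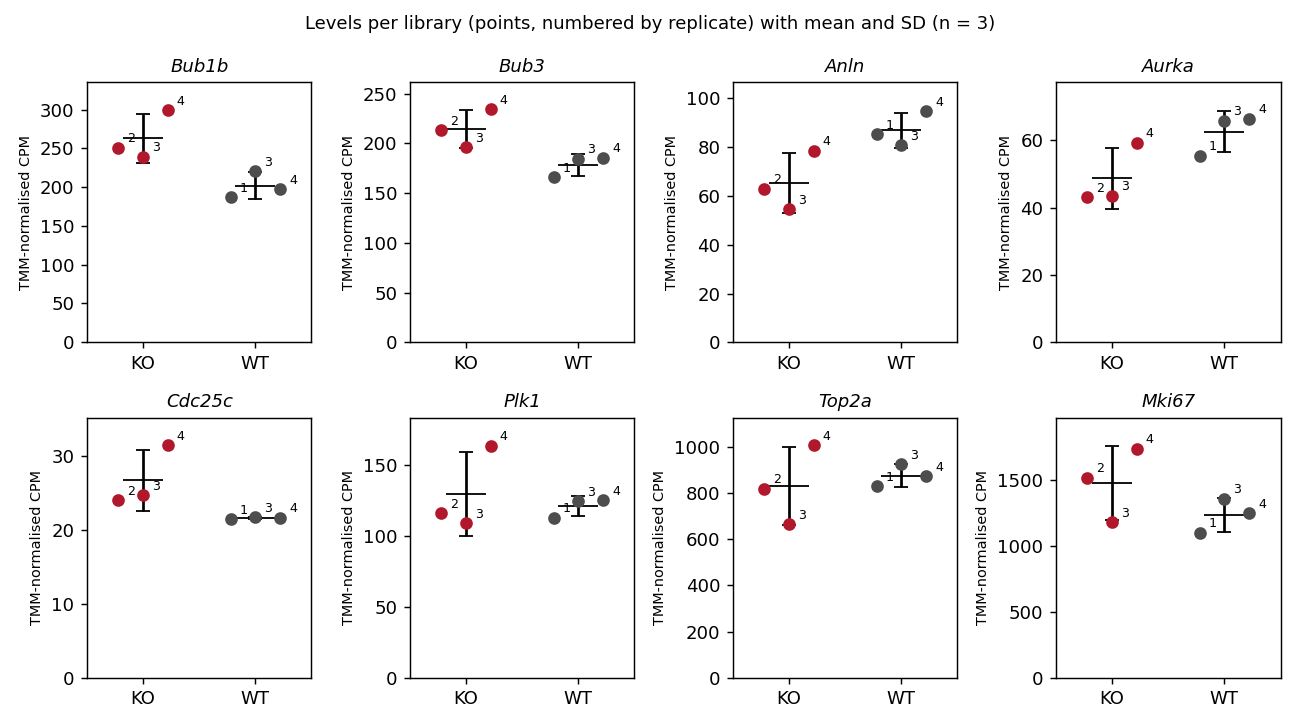
TMM-normalised CPM (y axis, from 0) of 8 of the genes in each library, KO left and WT right; points carry the replicate number, and the bars are the mean and SD of 3 libraries. KO libraries all lie above WT for Bub1b, Bub3 and Cdc25c and below it for Anln, and KO replicate 4 is the highest KO point in every panel.

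The genes of anaphase onset gave small positive values. Ube2c, the ubiquitin-conjugating enzyme of the anaphase-promoting complex, had 150.2, 138 and 170.1 CPM in the KO libraries, against 120.1, 139 and 129 CPM in the WT libraries. Only WT replicate 3 reached the KO range, and the log2 fold change was 0.24 (SE 0.10, adjusted p = 0.0844). Cdc20, the activator that the checkpoint holds back, gave 0.16 (SE 0.10, adjusted p = 0.212).

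Among kinetochore genes, those of one complex gave values of opposite sign. Nuf2 and Ndc80 encode partner subunits of the NDC80 complex that grips microtubules. Nuf2 had 68.5, 54.1 and 78.0 CPM in the KO libraries, against 78.5, 78.0 and 84.5 CPM in the WT libraries. The highest KO and lowest WT values of Nuf2 are equal to 3 digits, so its groups are barely separate (log2 fold change -0.26, interval -0.58 to 0.05, adjusted p = 0.132). Ndc80 had 70.7, 53.8 and 73.6 CPM in the KO libraries, against 57.3, 52.5 and 63.7 CPM in the WT libraries. Here KO replicates 2 and 4 were above the WT range and KO replicate 3 was within it (0.19, adjusted p = 0.270). Cenpf, a large corona protein, gave -0.27 (adjusted p = 0.146), and the kinetochore motor Cenpe 0.16 and the centromeric histone Cenpa 0.12. The difference between Nuf2 and Ndc80 was not tested.

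The 5 mitotic kinesins spread around 0 and 0 were called. Kif11 encodes the motor that pushes the spindle poles apart and had 339, 295 and 403 CPM in the KO libraries, against 357, 416 and 417 CPM in the WT libraries. Its KO replicates 2 and 3 lay under the WT range (log2 fold change -0.20, adjusted p = 0.232). Kif4, a chromosome-arm motor, gave the highest value of the group, 0.26 (SE 0.12, adjusted p = 0.119). Kif20a and Kif23, motors of the midzone, gave 0.19 and 0.05, and the microtubule depolymerase Kif2c gave -0.01. Kif2c was also the one gene of the 34 whose sign differed in the authors' deposited table.

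Top2a and Mki67, the genes most used to mark proliferating cells, were the 2 most abundant of the set. Top2a, which encodes the topoisomerase that untangles sister chromatids, had 820.4, 667 and 1008 CPM in the KO libraries, against 830.4, 927 and 875 CPM in the WT libraries. Mki67, which encodes the coat protein of mitotic chromosomes, had 1517, 1179 and 1737 CPM in the KO libraries, against 1100.0, 1358 and 1246 CPM in the WT libraries. In both genes the KO libraries spread more widely than the WT libraries and overlapped them. The log2 fold change was -0.08 for Top2a (interval -0.44 to 0.28) and 0.26 for Mki67 (interval -0.12 to 0.63). Per kilobase of exon these 2 genes also led the set in KO, while in WT Cenpa stood between them: Top2a had 159 ± 32.7 CPM per kb in KO and 168 ± 9.23 in WT, and Mki67 had 147 ± 27.9 in KO and 123 ± 12.8 in WT (SD, n = 3 each). Cenpa, Ccna2, Ccnb2 and Birc5 followed in KO with 137, 125, 107 and 99.8 CPM per kb, against 126, 105, 98.1 and 95.5 in WT. The lowest in KO were Mad2l1, with 12.5 against 11.02 in WT, Cdc25c, with 13.8 against 11.1, and Anln, with 14.2 against 18.9. Neighbouring genes in this order mostly overlap in their SDs, and the exon length of Mad2l1, 7557 bases, is set by its long UTR.

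**Figure D3:**
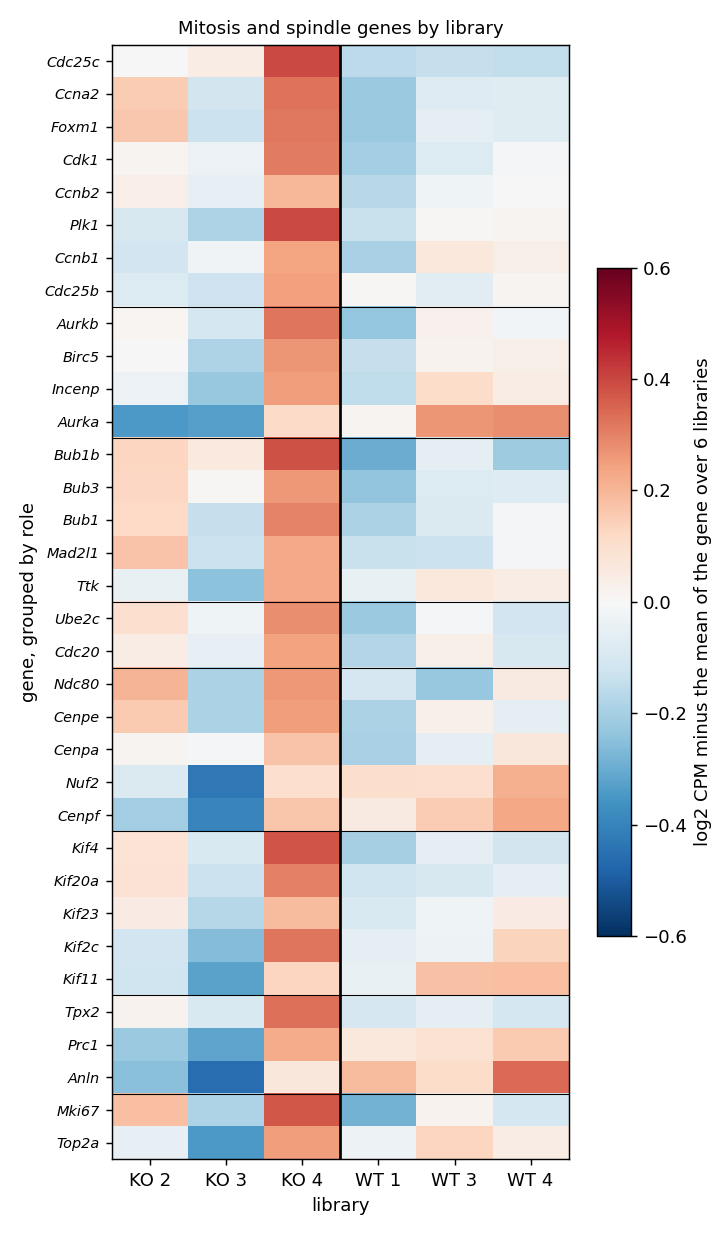
Log2 CPM of each of the 34 genes (rows, by role) in each library (columns) minus the gene's mean over the 6 libraries; red is above that mean and blue below it. The KO replicate 4 column is red in nearly every row, and the KO replicate 3 and WT replicate 1 columns are mostly blue, with median distances of 0.26, -0.13 and -0.14.

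The 34 genes shared an order among libraries of one genotype. KO replicate 4 was the highest KO library for 34 of 34 genes, which held for 37.4% of all genes tested. KO replicate 3 was the lowest KO library for 31 of them (91.2%, against 32.6% of all genes), the exceptions being Cdc25c, Ccnb1 and Aurka. The full order, replicate 4 above 2 above 3, held for those 31 genes and for 18.1% of all genes. It also held for 109 of the 144 other mitotic genes and 31 of the 39 DNA replication genes described below, whose KO libraries likewise spread more widely than their WT libraries. In WT, replicate 1 was the lowest library for 29 genes (85.3%, against 37.6% of all genes). The median distance from a gene's mean over the 6 libraries, in log2 units, was 0.02, -0.13 and 0.26 in KO replicates 2, 3 and 4, against -0.14, -0.02 and 0.01 in WT replicates 1, 3 and 4. The spread within KO was the wider one: the highest KO library was a median of 1.36 times the lowest over these genes, and the highest WT library 1.13 times the lowest. Over all genes tested the order was the other way, 1.18 times in KO and 1.27 times in WT. Between KO replicates 4 and 3 the ratio was 1.51 for Top2a, 1.48 for Cenpf and 1.47 for Mki67, and it was smallest for Cenpa, at 1.13. These ratios within KO exceeded the ratio of the group means, KO over WT, for Top2a (0.948), Cenpf (0.827) and Mki67 (1.20). KO replicate 4 also had the most neutrophil marker RNA of the KO libraries and WT replicate 1 the most of the WT libraries, 7281.6 and 42516.9 CPM.

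The summed level of the 34 genes was 6930.6, 5956.3 and 8176.4 CPM in KO replicates 2, 3 and 4, against 6074.3, 6856.8 and 6720 CPM in WT replicates 1, 3 and 4. KO replicate 3 was the lowest of all 6 and KO replicate 4 the highest, so the sum did not separate the genotypes. The mean was 7021 ± 1113 CPM in KO and 6550 ± 418 CPM in WT (SD, n = 3 each), a ratio of 1.07. As a share of all counts, the 34 genes took 0.707%, 0.624% and 0.857% in the KO libraries, against 0.565%, 0.668% and 0.657% in the WT libraries.

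**Figure D4:**
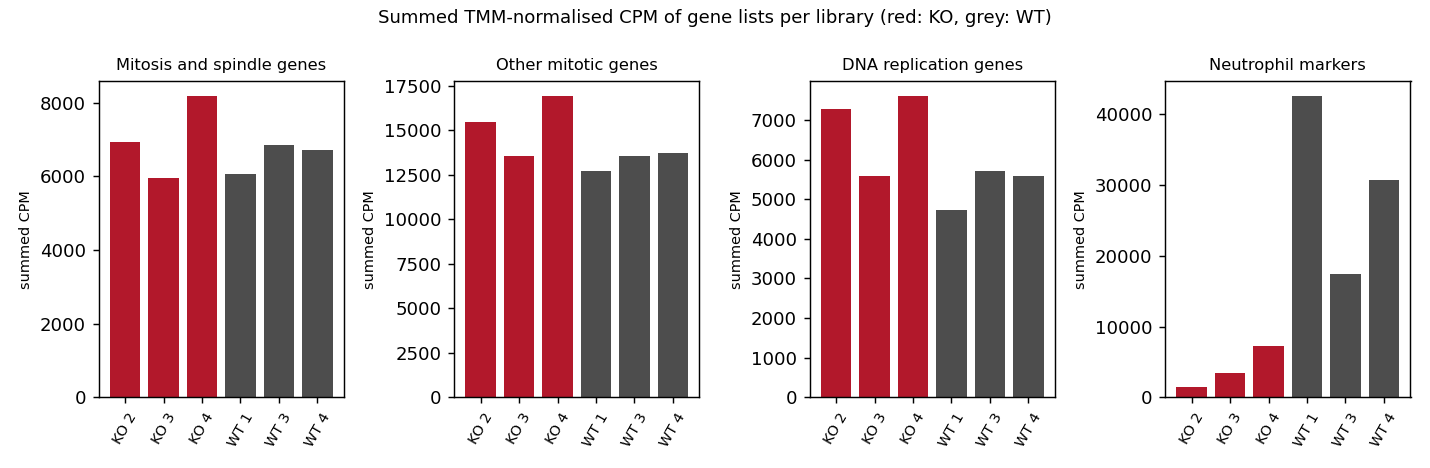
Summed TMM-normalised CPM (y axis, from 0) of the 34 genes, the other mitotic genes, the DNA replication genes and the neutrophil markers in each library, KO in red and WT in grey. KO replicate 4 is the highest bar in the first 3 panels, and every KO bar is under every WT bar in the fourth.

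Other genes of mitosis were listed by role. Of 144 tested, 44 were called higher in KO and 5 lower, with a median log2 fold change of 0.21. The higher calls were 30.6% of them and the lower calls 3.47%, against the 23.9% and 28.5% of all genes given above. Together they had 15465.9, 13548.9 and 16924.5 CPM in the KO libraries, against 12739.2, 13551.1 and 13715.5 CPM in the WT libraries, where only KO replicate 3 fell among the WT values. By role, 9 of 18 centrosome and centriole genes were called higher (50%) and 1 lower. The same counts were 8 (40%) and 0 of 20 condensin and cohesin genes and 5 (29.4%) and 0 of 17 anaphase-promoting complex genes. For entry and exit genes they were 5 (41.7%) and 1 of 12. The shares called higher lay below that of all genes in 2 roles. These were kinetochore and checkpoint genes, with 6 (16.7%) and 0 of 36, and spindle and cytokinesis genes, with 5 (21.7%) and 1 of 23. The genes named next are among the 4 with the smallest p in their lists. Cep152, a scaffold for centriole duplication, gave 0.58, and Haus4, a subunit of the augmin complex that branches spindle microtubules, gave 0.62. Pttg1, which encodes securin, gave 0.58, as did Esco2, which acetylates cohesin. Cenpq and Cenpn of the inner kinetochore gave 0.60 and 0.70, and Sgo1, the protector of centromeric cohesin, 0.57. Anapc15, which helps the complex escape the checkpoint, gave 0.56. Cks1b, the small partner of CDKs, had 94.8, 84.4 and 95.5 CPM in the KO libraries, against 56.2, 66.5 and 59.7 CPM in the WT libraries, with 0.59 (SE 0.09, adjusted p = 0.00238). Kifc1, a minus-end motor, gave 0.49. Cdc14a, a phosphatase, was lower, at -0.38. Of these named genes, Esco2 had an adjusted p of 0.0591 without KO replicate 2 or KO replicate 4 and 0.0632 without WT replicate 1. The 44 higher calls numbered 27 without KO replicate 2 or 4 and 26 without WT replicate 4, and the 5 lower calls ran from 1 without KO replicate 2 to 10 without KO replicate 4, with 2 for KO replicate 3 and 3 for WT replicate 4. With the neutrophil covariate 0 genes of any of these lists were called, the DNA replication genes and paralogs below included. Among the genes named here, the covariate left fold changes about as large for Sgo1 (0.58), Cep152 (0.56) and Cdc14a (-0.37). They were larger for Kifc1 (0.75), Pttg1 (0.76) and Esco2 (0.71). Those of Anapc15 (0.15), Cenpn (0.47), Cenpq (0.47), Haus4 (0.46) and Cks1b (0.46) were smaller with it.

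One of these lists held genes of the MuvB complexes, which bind the CHR element, together with DREAM and E2F genes. Of 18 MuvB, DREAM and E2F genes, 6 were called higher (33.3%, against 23.9% of all genes) and 2 lower (11.1%, against 28.5%). Mybl2, which encodes B-MYB, the partner of MuvB in S and G2 phase, had 278.9, 217.1 and 260.3 CPM in KO replicates 2, 3 and 4, against 81.4, 112.7 and 98.2 CPM in WT replicates 1, 3 and 4. Every KO library was far above every WT library, and KO replicate 2, not 4, was the highest. The log2 fold change of Mybl2 was 1.37, with an SE of 0.14 and an adjusted p of 0.000559, and 1.024, with an adjusted p of 0.0829, with the neutrophil covariate. E2f4, a repressive E2F of the DREAM complex, had 200.01, 189 and 177 CPM in the KO libraries, against 103, 131 and 108 CPM in the WT libraries (0.72, SE 0.11, adjusted p = 0.00213). Of the MuvB core, Lin9 was higher, at 0.54, and Lin52 lower, at -0.63, with an adjusted p of 0.0510 and 0.0548 when KO replicate 2 or KO replicate 3 was left out. With the neutrophil covariate, E2f4 fell to 0.34 (adjusted p = 0.394), while Lin9 gave 0.70 and Lin52 -0.41 (adjusted p = 0.176 and 0.572). Foxm1, the remaining activator of the CHR genes and one of the 34, was not called, as given above.

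DNA replication genes, which are expressed earlier in the cell cycle, gave 18 of 39 called higher and 0 lower, with a median log2 fold change of 0.41. The higher calls were 46.2% of them, against 23.9% of all genes, and the lower calls 0%, against 28.5%. By edgeR at an unadjusted p under 0.05, in either direction, 28 of these 39, 5 of the 34 mitosis and spindle genes and 8580 of all 14481 genes passed. Summed, they had 7281.5, 5581.9 and 7601 CPM in the KO libraries, against 4729.1, 5717.3 and 5578.6 CPM in the WT libraries, again with KO replicate 3 among the WT values. Rfc3, a clamp loader subunit, gave 0.83, and Uhrf1, which maintains DNA methylation behind the fork, gave 0.72. Cdt1, a licensing factor, gave 0.62 and Orc2, of the origin recognition complex, 0.58. KO replicate 3 was the lowest KO library for 38 of the 39 and WT replicate 1 the lowest WT library for 36. Without KO replicate 3 the count called higher was 31, without KO replicate 2 or 4 it was 7, and without WT replicates 1 and 4 in turn it was 9 and 8. A difference between these lists and the 34 genes was not tested.

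Paralogs of the 34 genes were listed apart. Of 13, 8 were tested, and 2 were called higher (25%, against 23.9% of all genes) and 3 lower (37.5%, against 28.5%). Kif2a, the close relative of Kif2c, had 179.6, 168.9 and 173.2 CPM in the KO libraries, against 105.6, 112.6 and 110.2 CPM in the WT libraries. The libraries of each genotype lay close together, and the log2 fold change, 0.67 with an SE of 0.07 (adjusted p = 0.00042), was larger than that of any of the 34 genes. Plk3, a stress-responsive relative of Plk1, had 23.4, 27.8 and 36.7 CPM in the KO libraries, against 187, 50.3 and 69.6 CPM in the WT libraries (-1.80, SE 0.48, adjusted p = 0.0179). Plk2 had 3.25, 3.62 and 4.41 CPM in the KO libraries, against 84.0, 10.5 and 17.2 CPM in the WT libraries (-3.29, SE 0.79, adjusted p = 0.0118). Without KO replicate 2 or KO replicate 3 the adjusted p of Plk3 was 0.0620 and 0.0635, and 1 of the 3 lower calls was left. For Plk2 and Plk3, WT replicate 1 was far above the other WT libraries. It was also the highest for the summed stress response genes, with 4303.1 CPM against 2244.1 and 2203.6 CPM in WT replicates 3 and 4. In KO libraries that sum was at most 1288.4 CPM. For the neutrophil markers WT replicate 1 had 42516.9 CPM, against 17483.5 and 30663.8 CPM in WT replicates 3 and 4. The part of stress response or neutrophil RNA in the Plk2 and Plk3 values was not tested.

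**Figure D5:**
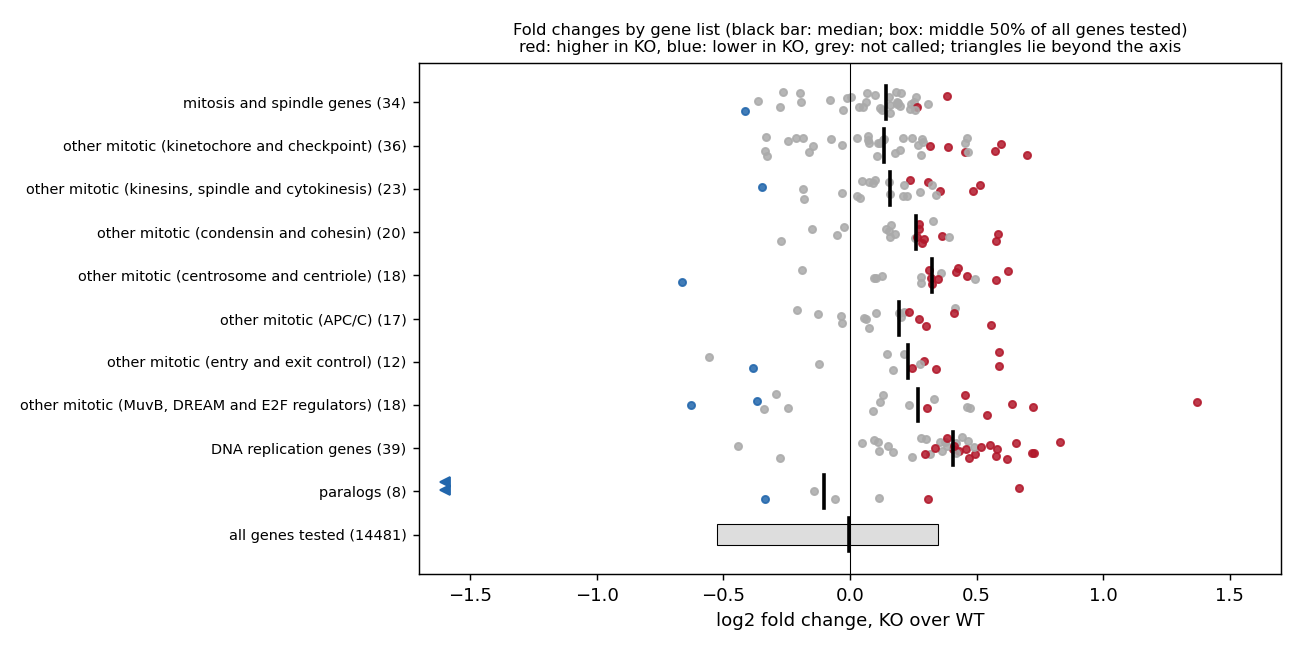
Log2 fold changes, KO over WT (x axis), of the 34 genes, the other mitotic lists, the DNA replication genes and the tested paralogs; each point is a gene, black bars are medians, red is called higher, blue lower and grey not called, and the box holds the middle 50% of all genes tested. The medians are 0.14 for the 34 genes and 0.41 for the DNA replication genes, and 2 paralogs, Plk2 and Plk3, lie beyond the left edge.

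Counts of some of the 34 genes may hold reads of other genes. Ccna2, Cdc25b, Cdc20, Kif20a, Kif4 and Prc1 overlap a tested gene on the opposite strand (Exosc9, Spef1, Elovl1, Cdc23, Pdzd11 and Rccd1), and the sources used here do not say whether counting used the strand. Foxm1 overlaps Tex52 and Kif11 the processed pseudogene Gm8663, with 113 and 256 counts over all libraries. The pseudogenes Ccnb1-ps, Ccnb2-ps and Kif4-ps had 205, 19 and 0 counts over all libraries. None of the 3 called genes overlapped a tested gene.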

How the data were processed

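Whole-number counts per Ensembl gene were deposited by the authors, with symbols, positions and exon lengths for 55487 genes on GRCm38.p6, per the file headers. For the aligner, the counter and the strand setting, the sources used here give no name. The authors' comparison table, from DESeq2, gives each gene a log2 fold change, the same as a ratio, a p-value and an FDR, per the file headers; their thresholds come from a further deposited table.

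Counts were analysed with edgeR 4.0.16 in R 4.3.3: filterByExpr (minimum count 10, minimum total 15), TMM factors of 0.932 to 1.05, and the quasi-likelihood F test on genotype with Benjamini-Hochberg adjustment over 14481 genes at 0.05. The common biological coefficient of variation was 16.8%. SE is the log2 fold change divided by the square root of F, and 95% intervals use the test's degrees of freedom. Floors cover counting error only, because the reads carry no molecular identifiers, and intervals cover the spread between libraries only. Levels per length are CPM per kilobase of the deposited exon length. Promoters and the microRNA are from RefSeq tables on GRCm38.p6, and 3′ UTRs are from GENCODE M21. Of 29 promoter windows, 18 have their first 30 transcribed bases inside a GENCODE transcript of the gene. Alternatives used limma 3.58.1 and DESeq2 1.42.0, and figures matplotlib 3.10.9 in Python 3.11.15. The procedure was tested on simulated data.

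All 34 genes are named, with up to 4 genes of the smallest p from each other list. The genes and the lists were chosen with earlier results of these data known. No 2 libraries agreed within sampling noise (chi-square per degree of freedom of 11.1 to 78.2).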

Additional observations from a re-analysis of the deposited data

How the results depend on the processing

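Each result was recomputed under 16 alternatives, of which library totals alone and the neutrophil covariate were added after seeing the data. Of 544 values of the 34 genes, 460 kept their direction and side of the threshold, 18 lost a call, 30 gained one (18 higher, 12 lower) and 36 changed sign, 0 of these with a call. The median log2 fold change of the 34 genes stayed within 0.06 to 0.29. Genes called higher and lower, 2 and 1 of the 34, were 4 and 0 with upper-quartile factors, 4 and 6 with limma-voom quality weights, 2 and 0 with no filter, 7 and 0 with library totals alone, which moved the median of all genes to 0.11, and 0 and 0 with the neutrophil covariate. Leaving out 1 library gave 0 to 8 higher and 0 to 5 lower: 8 and 0 without KO replicate 3, and 0 and 5 without KO replicate 4. The cause was not tested.

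The other mitotic genes, 44 and 5, had 3 lower with upper-quartile factors and with no filter, 23 lower with voom weights, 70 and 3 with library totals alone, 0 and 0 with the covariate, and 26 to 55 higher and 1 to 10 lower with a library left out. The DNA replication genes, 18 and 0, had 28 higher with no filter and with library totals alone, 0 with the covariate, 1 lower with DESeq2 and with limma-trend, 2 lower with voom weights, and 7 to 31 higher and 0 to 1 lower with a library left out. The paralogs, 2 and 3, had 0 and 0 with the covariate, and 1 to 2 higher and 1 to 3 lower with a library left out.

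Replicate numbers 3 and 4 occur in both groups, and same-numbered libraries deviated from their group means with correlations of 0.04 and 0.19. Pairs with different numbers ran from -0.40 to 0.39. With 3 libraries per group these values cannot tell what a shared number stands for, and the labels do not say. With the replicate number as a block, the 34 genes had 2 higher (Bub1b and Cdc25c; Bub3 was lost, adjusted p = 0.136) and 3 lower (Anln, Aurka and Nuf2), the other mitotic genes 32 and 10, the DNA replication genes 10 and 2 and the paralogs 1 and 3; Incenp was -0.066 and Kif23 -0.0032.

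Signs also changed, mostly for uncalled genes near 0, and with the covariate for Anapc16 and Plk3, which had been called. Ttk and Kif2c were 0.028 and 0.043 with upper-quartile factors, 0.031 and 0.049 with no filter, 0.083 and 0.10 with library totals alone and 0.19 and 0.42 with the covariate. Top2a was 0.034 with library totals alone. With the covariate, Top2a was 0.12, Cenpf 0.055, Prc1 0.24, Anapc16 -0.041 and Plk3 0.063. With voom weights, Ccnb1 was -0.028, Cdc25b -0.039, Plk1 -0.026, Incenp -0.070, Birc5 -0.024, Cenpa -0.00091 and Kif23 -0.028, and Incenp was -0.0046 with limma-trend. With a library left out, Ttk ran from -0.14 to 0.10, Kif2c from -0.18 to 0.13, Top2a from -0.21 to 0.081, Ccnb1 from -0.012 to 0.18, Cdc25b from -0.064 to 0.13, Plk1 from -0.080 to 0.23, Incenp from -0.11 to 0.13, Birc5 from -0.039 to 0.19 and Kif23 from -0.011 to 0.16.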
